A study of Mus musculus with 6 samples.

Results

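Projection neuron identity determinants are the transcription factors that set which long-range axon a cortical excitatory neuron makes, taken here with marker genes of these neurons. The members were all probe sets whose single gene symbol in the platform annotation was Tbr1, Fezf2, Bcl11a, Bcl11b, Satb1, Sox5, Zfpm2, Ctgf or Ccn2, and Ctgf is the older symbol of Ccn2. That rule gave 28 probe sets of 8 genes, out of 45037 probe sets and 18193 genes in all. Ctgf gave 0 probe sets of its own, and all 28 are described here.

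Messenger RNA was measured on Affymetrix arrays in subiculum with retrosplenial cortex from C57BL/6 mice on postnatal day 1. The comparison was between 3 arrays of wildtype littermates and 3 arrays of D6/Zbtb20S transgenic mice, in which the same areas are labelled CA1-transformed, CA1 being a hippocampal field. Each array held RNA pooled from 7 animals, so an array is 1 pool and not 1 mouse. The labels do not describe the transgene further. As background, D6 is a regulatory element of Dach1 that is active in the developing forebrain, and Zbtb20S is the short form of Zbtb20, a zinc finger repressor of hippocampal pyramidal neurons. The litters behind each pool are not given in the sources used here, and the p-values reflect variation among pools alone. Fewer cells of a type and less RNA per cell cannot be told apart in such tissue.

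Deep-layer cortical neurons send their axons out of the cortex, to the thalamus from layer VI and to brainstem and spinal cord from layer V, while callosal neurons cross to the other hemisphere. The identity of each class rests on transcription factors that repress one another in the newborn neuron. Tbr1 and Sox5 hold layer VI neurons to the corticothalamic course and restrain Fezf2 and Bcl11b, and Fezf2 acts upstream of Bcl11b to set the subcerebral course of layer V. Several of the factors also serve outside this network: Bcl11b in hippocampal pyramidal and striatal neurons, Bcl11a in hippocampal neurons, and Satb1 in cortical interneurons.

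The promoters of the core members are shown because the members named for mutual repression differ in the direction of their change below. The sequences run from 250 bases before to 50 after the annotated start and come from RefSeq on GRCm38.p6, where 6 of the 8 genes had an entry, with 10 promoters in all. Zfpm2 and Ccn2 had none. Capitals mark matches, on either strand, to the T-box core GGTGTG, the SOX core AACAAT and the BCL11 motif TGACCA, the letters that T-box, SOX and BCL11A proteins are known to bind. The matches do not overlap one another in the promoters shown.
Tbr1, chr2:61804203-61804502, plus strand: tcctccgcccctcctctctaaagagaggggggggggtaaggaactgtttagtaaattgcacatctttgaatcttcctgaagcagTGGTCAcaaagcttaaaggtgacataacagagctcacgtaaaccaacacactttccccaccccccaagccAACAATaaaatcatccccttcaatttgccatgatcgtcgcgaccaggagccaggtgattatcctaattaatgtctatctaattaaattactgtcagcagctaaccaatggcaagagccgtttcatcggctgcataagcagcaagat
Fezf2, chr14:12345816-12346115, minus strand: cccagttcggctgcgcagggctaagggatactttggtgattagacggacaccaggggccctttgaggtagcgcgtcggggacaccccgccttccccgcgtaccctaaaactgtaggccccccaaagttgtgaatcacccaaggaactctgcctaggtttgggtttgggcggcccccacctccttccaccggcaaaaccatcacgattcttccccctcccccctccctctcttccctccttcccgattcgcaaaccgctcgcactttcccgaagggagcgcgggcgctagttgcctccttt
Bcl11b, chr12:108003365-108003664, minus strand: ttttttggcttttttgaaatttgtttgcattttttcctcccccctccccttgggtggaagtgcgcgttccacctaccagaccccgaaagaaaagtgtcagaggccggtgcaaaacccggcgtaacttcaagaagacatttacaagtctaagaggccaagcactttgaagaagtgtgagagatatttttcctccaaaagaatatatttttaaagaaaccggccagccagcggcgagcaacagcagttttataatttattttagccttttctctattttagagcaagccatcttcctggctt
Bcl11a, chr11:24080445-24080744, plus strand: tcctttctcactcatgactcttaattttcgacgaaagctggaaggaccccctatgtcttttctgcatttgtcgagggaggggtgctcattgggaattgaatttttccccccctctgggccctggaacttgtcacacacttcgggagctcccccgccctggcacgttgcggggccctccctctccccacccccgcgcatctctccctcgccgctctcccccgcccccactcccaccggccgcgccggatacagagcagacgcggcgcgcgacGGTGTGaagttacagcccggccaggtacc

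The Tbr1 window held a BCL11 motif at -166 and a SOX core at -96, counted in bases from the start. In the Bcl11a window a T-box core lay at 21, and the letters of these 3 motifs were not in the Fezf2 and Bcl11b windows. Over the 32851 promoters of the table, 19% held the T-box core, 10.7% the SOX core and 13.6% the BCL11 motif, so a match is a description and not a site. Of the 10 member promoters, 4 held the T-box core, 1 the SOX core and 1 the BCL11 motif. The 4 with the T-box core were that of Bcl11a, that of Sox5 and 2 of the 5 Satb1 starts.

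Of the 28 probe sets, 5 were higher and 8 lower in D6/Zbtb20S tissue at an adjusted p under 0.05 in limma, and 15 did not pass. Of all probe sets, 3.4% were higher and 2.11% lower by the same rule, 5.52% in either direction. The 8 lower probe sets belonged to 5 genes (Tbr1, Zfpm2, Ccn2, Fezf2 and Satb1), the 5 higher ones to Bcl11b and Bcl11a, and none of the 7 Sox5 probe sets passed. No gene had probe sets called in opposite directions. The median change was 0.06 over the 28 probe sets and -0.02 over all probe sets, on the log2 scale of D6/Zbtb20S minus wildtype that is used for every change below. On 18 of the 28 probe sets the arrays of the genotypes did not overlap, against 23.7% of all probe sets.

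**Figure D1:**
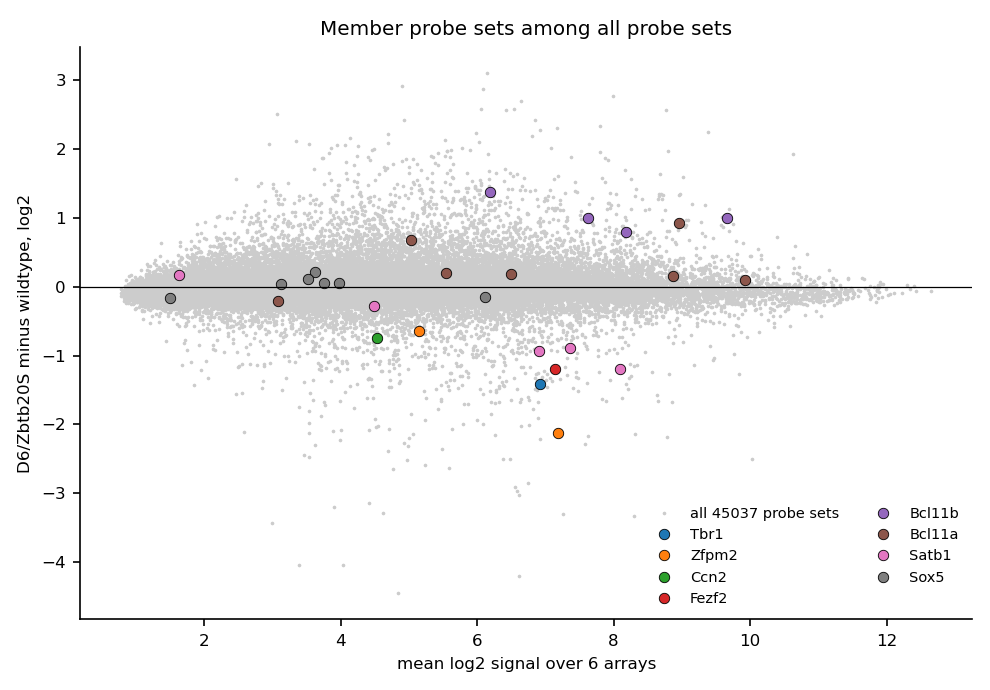
Change between genotypes (D6/Zbtb20S minus wildtype, log2) against mean log2 signal over the 6 arrays, for all 45037 probe sets (grey) and the 28 member probe sets (coloured by gene). Sox5 points lie near 0 and mostly at low signal, Bcl11b points between 0.80 and 1.38, and the brighter Zfpm2 point at -2.12.

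The calls rest on variances moderated across probe sets. In an ordinary linear model, which uses each probe set's own spread alone, Fezf2 was the only member probe set to pass (adjusted p = 0.0261), and the other 12 had adjusted p from 0.0525 to 0.277, with the same changes.

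Arrays were checked before the members were compared. Of 9 Zbtb20 probe sets, 1 passed, 1422064_a_at, and on all 9 the highest wildtype array was replicate 3. On 1422064_a_at wildtype replicates 1, 2 and 3 read 6.44, 5.84 and 7.64 on the log2 scale, and D6/Zbtb20S replicates 1, 2 and 3 read 8.88, 9.10 and 8.94. The 3'-minus-5' log2 signal of the actin control, a sign of RNA quality and labelling, was 0.53, 0.88 and 1.31 in the wildtype arrays and 0.80 to 0.91 in the transgenic ones. Without wildtype replicate 3, 8 member probe sets were lower and 4 higher. The probe set that lost its call was 1447334_at of Bcl11a (adjusted p = 0.0638). The wildtype arrays stood in the order of their actin difference on 7 of the 28 member probe sets (25%), as on 23.5% of all probe sets. They stood in the opposite order on 2 of the 28 (7.14%), against 21.2% of all probe sets. With the actin difference as a covariate all 13 calls held. Among the 13 called probe sets wildtype replicate 3 was the wildtype array nearest to the transgenic mean on 6, replicate 1 on 5 and replicate 2 on 2.

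Tbr1, the T-box factor of layer VI and of the corticothalamic fate, was lower in transgenic tissue. Its single probe set, 1416711_at, read 7.52, 7.89 and 7.46 in wildtype replicates 1, 2 and 3 and 6.27, 6.22 and 6.14 in D6/Zbtb20S replicates 1, 2 and 3. The wildtype arrays spread more widely (7.62 ± 0.23, SD, n = 3) than the transgenic ones (6.21 ± 0.065, SD, n = 3), and the highest transgenic array lay below every wildtype array. The change was -1.41 ± 0.12 (SE; adjusted p = 0.000416), 2.66-fold lower.

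Zfpm2, also called Fog2, is a zinc finger cofactor of GATA factors found in corticothalamic neurons, and it had the largest fall among the members. Probe set 1449314_at read 8.22, 8.24 and 8.26 in wildtype tissue, and 6.42, 6.13 and 5.82 in transgenic tissue. Here the spread lay in the transgenic arrays (SD 0.30, against 0.023 in wildtype), and the gap between the groups was wider than the spread of either. The change was -2.12 ± 0.14 (adjusted p = 0.000127), or 4.35-fold lower. The dimmer probe set 1419012_at, for which the annotation gives the same source sequence, read 5.51, 5.53 and 5.38 against 4.89, 4.83 and 4.77, and fell 1.56-fold (-0.65 ± 0.081, adjusted p = 0.00288). Both probe sets fell without overlap, but the 95% intervals of their changes, -2.44 to -1.80 and -0.83 to -0.46, did not meet. As the mean of both, Zfpm2 was at -1.38 (adjusted p = 3.4e-05 in limma over genes).

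Ccn2 encodes a secreted matrix-associated protein and marks the subplate, the deepest cortical neurons. Its probe set 1416953_at was dim, at 4.90, 5.02 and 4.78 in wildtype and 4.26, 4.13 and 4.07 in transgenic arrays, where the array medians lay between 3.83 and 3.97. The arrays did not overlap, and the change was -0.75 ± 0.094 (adjusted p = 0.00286), 1.68-fold lower.

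Ccn2 is also made by meningeal and vascular cells. Of 14 meningeal fibroblast genes, 0 passed in limma, 0 had an unadjusted p under 0.05 and 0 passed in the ordinary linear model. The summed linear signal of that list ran from 781 to 1193 in wildtype and from 620 to 1158 in transgenic arrays. Among 14 endothelial and mural genes 1 was lower, the glucose transporter gene Slc2a1 (-0.36 ± 0.081, adjusted p = 0.0399), and the summed signals were 843 to 1052 and 805 to 994. Without wildtype replicate 1 there was 1 lower gene in this list, and 0 without any other single array. The part of either list in the Ccn2 values was not tested.

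Sox5, a SOX factor that times the production of deep-layer neurons, was read by 7 probe sets and none of them passed. The brightest, 1455535_at, read 6.10, 6.40 and 6.05 in wildtype and 5.99, 6.17 and 5.95 in transgenic arrays, and these ranges overlapped. Its change was -0.15 ± 0.11 (adjusted p = 0.559), with a 95% interval from -0.41 to 0.11, so falls as large as that of Tbr1 or Fezf2 lay outside the interval. The others had changes from -0.17 to 0.22, and 5 of the 7 were dim, with wildtype and transgenic means both below the median of the arrays, where RMA can compress a change. Only 1432189_a_at had an unadjusted p under 0.05, and there the arrays did not overlap, at 3.48, 3.55 and 3.50 against 3.72, 3.65 and 3.82 (0.22 ± 0.081, adjusted p = 0.192). In the opposite direction 1459261_at did not overlap either, with a change of -0.17 ± 0.088 at a signal under 2 on the log2 scale. 1432189_a_at and 1432190_at share a source sequence in the annotation. The sign of 1440827_x_at, 1423500_a_at, 1432190_at and 1452511_at depended on the arrays or settings used, and the mean of the 7 sets was positive where the brightest set was negative.

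**Figure D2:**
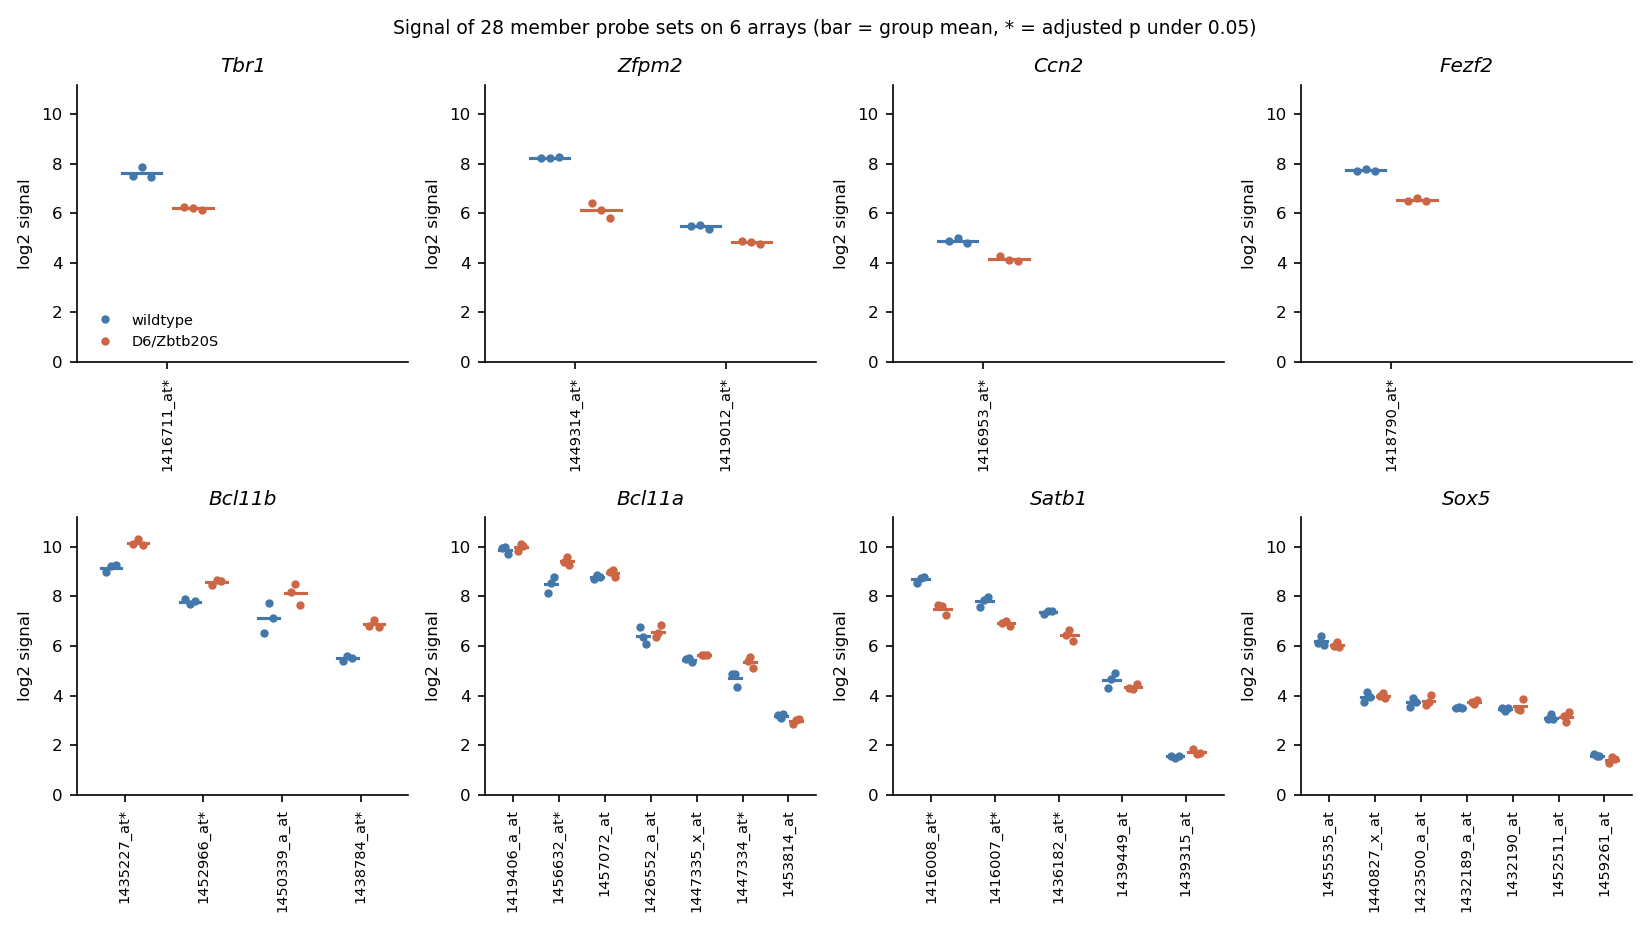
Log2 signal of the 28 member probe sets on the 6 arrays, 1 panel per gene, with wildtype points in blue, D6/Zbtb20S points in orange and bars at the group means; an asterisk marks an adjusted p under 0.05. The genotypes separate without overlap for Tbr1, Zfpm2, Ccn2 and Fezf2, and 3 of 4 Bcl11b and 3 of 5 Satb1 probe sets passed, while Sox5 did not pass on any of its 7.

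Fezf2, the zinc finger selector of subcerebral neurons, fell, as Tbr1 and Zfpm2 did. Probe set 1418790_at read 7.71, 7.80 and 7.69 in wildtype and 6.51, 6.62 and 6.50 in D6/Zbtb20S arrays. Both groups were tight (SD 0.056 and 0.068, n = 3 each) and lay more than 1 log2 unit apart. The change was -1.19 ± 0.079 (adjusted p = 0.000142), 2.28-fold lower, and it stayed between -1.23 and -1.16 over the 6 fits that left out 1 array.

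Bcl11b, also called Ctip2, a zinc finger factor downstream of Fezf2 in subcerebral neurons, rose where Fezf2 fell. The brightest probe set, 1435227_at, read 9.0, 9.23 and 9.26 in wildtype and 10.12, 10.30 and 10.06 in transgenic arrays, a 1.99-fold rise (0.99 ± 0.10, adjusted p = 0.00114). Probe set 1452966_at read 7.88, 7.68 and 7.80 against 8.46, 8.67 and 8.62, 1.74-fold higher (0.80 ± 0.093, adjusted p = 0.0019). On both sets every transgenic array lay above every wildtype array. The largest rise was that of 1438784_at, from 5.38, 5.61 and 5.52 to 6.81, 7.06 and 6.77, 2.60-fold (1.38 ± 0.10, adjusted p = 0.000255). The remaining set, 1450339_a_at, had a change of the same size, 1.00 ± 0.30, but did not pass (adjusted p = 0.116). It read 6.52, 7.74 and 7.11 in wildtype and 8.16, 8.52 and 7.67 in transgenic arrays, so that wildtype replicate 2 lay above D6/Zbtb20S replicate 3. Over these 4 probe sets the change ran from 0.80 to 1.38.

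Bcl11b is also a gene of striatal neurons, and 3 of 12 measured striatal genes were higher: the forkhead factor gene Foxp1 (1.12 ± 0.089, adjusted p = 0.000299), the homeobox gene Meis2 (0.68 ± 0.13, adjusted p = 0.018) and the enkephalin precursor gene Penk (0.66 ± 0.13, adjusted p = 0.0224). Of the 12 changes 10 were positive, with a list median of 0.071. The dopamine receptor genes of the list did not pass. Drd1 read 3.31 in wildtype and 3.36 in transgenic tissue, and Drd2 read 3.38 and 3.39. All of these means lay under the array medians, where RMA can compress a change. The summed signal of the list was 1245 to 1330 in wildtype and 2115 to 2385 in transgenic arrays. Most of this sum came from Foxp1 (log2 means of 9.13 in wildtype and 10.26 in transgenic tissue) and Meis2 (8.76 and 9.44). The part of the list in the Bcl11b values was not tested. Without wildtype replicate 2 or D6/Zbtb20S replicate 1, 1 striatal gene was higher.

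Bcl11a, also called Ctip1, is the paralogue of Bcl11b and acts in corticothalamic and callosal neurons. Its 7 probe sets did not give a single answer: 2 rose and 5 did not pass. The brightest set, 1419406_a_at, read 9.94, 9.99 and 9.73 in wildtype and 9.82, 10.10 and 10.02 in transgenic arrays, with overlap (0.095 ± 0.11, adjusted p = 0.71; 95% interval -0.15 to 0.34). By contrast 1456632_at, at 8.13, 8.56 and 8.80 against 9.40, 9.59 and 9.29, was 1.90-fold higher without overlap (0.93 ± 0.16, adjusted p = 0.0145). The intervals of these 2 sets, of which the second starts at 0.55, did not meet. The wildtype arrays of 1456632_at spread over 0.34 (SD, n = 3). With the actin covariate its change was 0.98 (adjusted p = 0.000718). The call was lost when wildtype replicate 2 or either of the transgenic replicates 1 and 2 was left out (adjusted p from 0.0604 to 0.0669).

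The other Bcl11a rise was small in signal. Probe set 1447334_at read 4.86, 4.86 and 4.36 in wildtype and 5.41, 5.55 and 5.13 in transgenic arrays (0.67 ± 0.16, adjusted p = 0.0484). Leaving out any array but transgenic replicate 3 ended the call (highest adjusted p 0.172), as did equal array medians (0.0518) and quantile normalization (0.0879). A set with the same source sequence, 1447335_x_at, had a change of 0.20 ± 0.080 that did not pass (adjusted p = 0.24), although its arrays did not overlap. For 1457072_at the change was 0.16 ± 0.096 and for 1426552_a_at 0.18 ± 0.18. The dim set 1453814_at went the other way, at -0.21 ± 0.087 (adjusted p = 0.259). As the mean of its 7 probe sets Bcl11a was higher by 0.29 ± 0.074 (adjusted p = 0.0431 in limma over genes), so whether the gene is called depends on which sets are read. Which transcript forms these sets read was not tested.

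Satb1, a chromatin organiser that anchors gene regulatory regions, fell on its 3 brighter probe sets. Probe set 1416008_at read 8.56, 8.73 and 8.79 in wildtype and 7.64, 7.61 and 7.26 in transgenic arrays, 2.28-fold lower (-1.19 ± 0.12, adjusted p = 0.00104). Its neighbour 1416007_at, with the same source sequence, read 7.56, 7.85 and 8.0 against 6.95, 7.0 and 6.80, 1.86-fold lower (-0.89 ± 0.12, adjusted p = 0.00407). None of the transgenic arrays reached the lowest wildtype array on either set. On 1436182_at, with a source sequence of its own, the values were 7.29, 7.40 and 7.41 against 6.46, 6.63 and 6.22, and the fall was 1.91-fold (-0.93 ± 0.11, adjusted p = 0.00237). The dimmer 1439449_at overlapped between the genotypes (-0.28 ± 0.15, adjusted p = 0.393), and 1439315_at, at a signal under 2 on the log2 scale, was at 0.17 ± 0.083 (adjusted p = 0.347). Averaged over all 5 sets the fall was -0.62 (adjusted p = 0.00216 in limma over genes).

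Satb1 is also made in cortical interneurons. Of 13 measured GABAergic interneuron genes 1 was lower, the GABA-synthesising enzyme gene Gad1 (-0.60 ± 0.099, adjusted p = 0.0109), and 4 were lower at an unadjusted p under 0.05, Gad1 among them. The other 3 were Nxph1 (-0.55 ± 0.13, adjusted p = 0.0563), the vesicular GABA transporter gene Slc32a1 (-0.29 ± 0.092) and Gad2 (-0.27 ± 0.11). The list median was -0.14, and 4 of the 13 changes were positive. The summed signal of the list was 1224 to 1304 in wildtype and 1031 to 1116 in transgenic arrays, and its part in the Satb1 values was not tested. Gad1 lost its call without wildtype replicate 2, when 0 genes of the list were lower. It was called on 1 of its 2 probe sets.

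**Figure D3:**
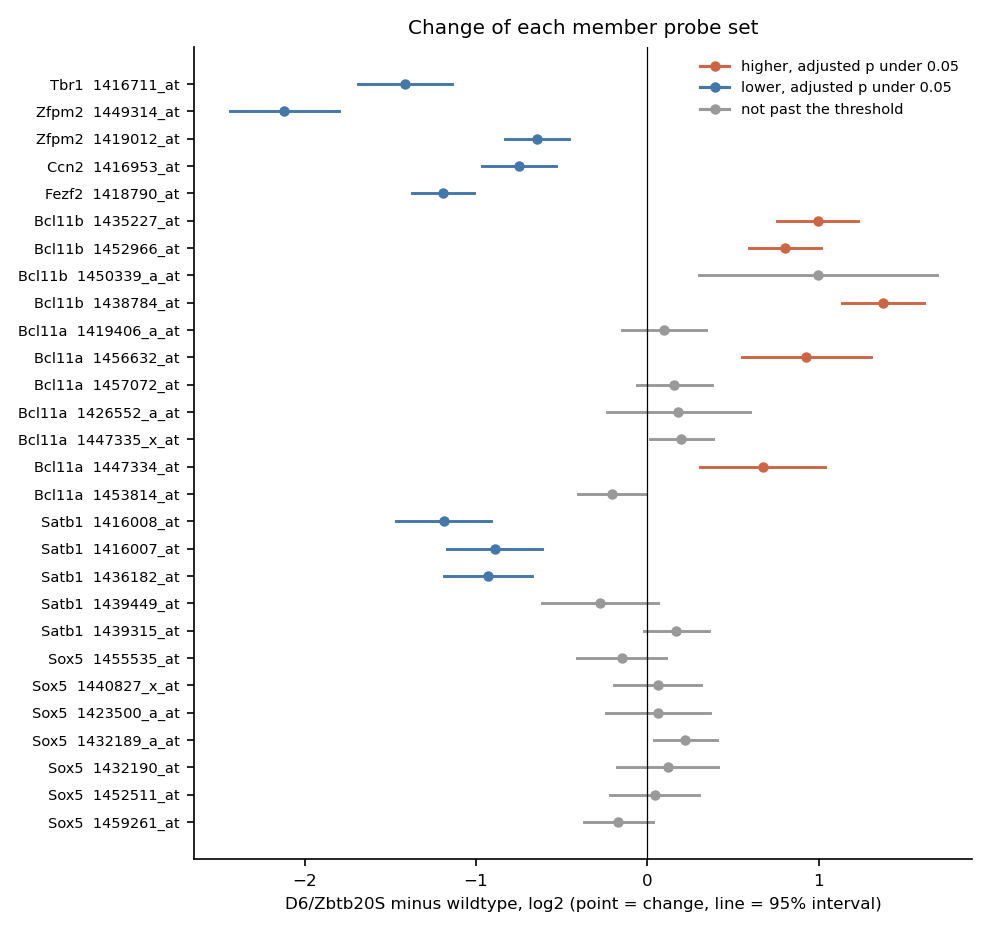
Change of each of the 28 member probe sets (D6/Zbtb20S minus wildtype, log2; point, change; line, 95% interval of the limma fit), coloured by call. The 8 lower sets lie between -2.12 and -0.65, the 5 higher sets between 0.67 and 1.38, and the Sox5 intervals lie close to 0.

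Pairs of determinants were compared within arrays, as the log2 difference between the brightest probe sets of 2 genes. Signals of different probe sets are not on a common scale, so only the shift of such a difference between the genotypes is read, which is the difference of the changes above. For Bcl11b minus Fezf2 the arrays read 1.29, 1.44 and 1.57 in wildtype and 3.61, 3.68 and 3.56 in D6/Zbtb20S tissue. The shift, 2.18 ± 0.089 (SE, n = 3 and 3), was far wider than the spread within either group. For Bcl11b minus Tbr1 the arrays read 1.48, 1.34 and 1.81 and then 3.85, 4.09 and 3.92, a shift of 2.41 ± 0.15.

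The difference of Bcl11b from the brightest set of its paralogue Bcl11a went from -0.94, -0.75 and -0.46 to 0.30, 0.20 and 0.045 (0.90 ± 0.16). This shift rests on a Bcl11a set that did not pass, while 1456632_at of Bcl11a changed by 0.93, close to the 0.99 of Bcl11b. Sox5 minus Fezf2 moved from -1.61, -1.40 and -1.64 to -0.52, -0.45 and -0.55 (1.04 ± 0.081). Fezf2 minus Tbr1, the members of layers V and VI that both fell, stood at 0.19, -0.092 and 0.23 in wildtype and 0.24, 0.41 and 0.36 in transgenic arrays. That shift, 0.22 ± 0.11, was the smallest of the 5 and close to the spread of the wildtype arrays (SD 0.18). In each of the 5 pairs the genotypes did not overlap, though for Fezf2 minus Tbr1 the nearest arrays lay at 0.23 and 0.24. The two-sided exact permutation p was 0.1 (0.1 adjusted over the 5 pairs), the smallest that 3 against 3 arrays can give. Each pair holds a gene that was called above, so the separation is no separate result. The share of other gene pairs that separate was not computed.

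**Figure D4:**
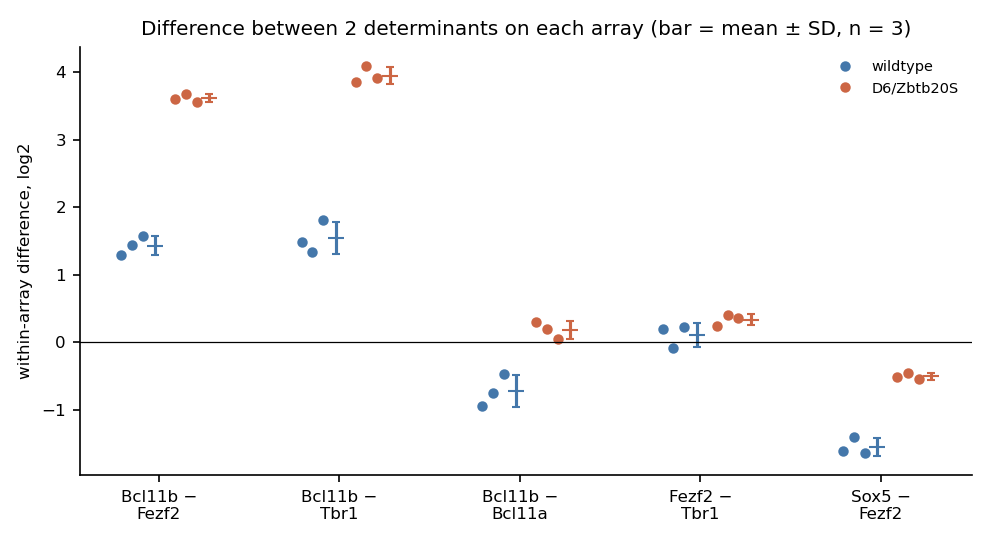
Log2 difference between the brightest probe sets of 2 determinants on each array, wildtype in blue and D6/Zbtb20S in orange, with bars for the mean and SD (n = 3). Bcl11b minus Fezf2 and Bcl11b minus Tbr1 shift by 2.18 and 2.41, and Fezf2 minus Tbr1 by 0.22.

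Other genes of the same neuron classes were counted on the brightest probe set of each gene, with p adjusted over all probe sets. Among all 18193 genes, 3.18% were higher and 2.92% lower by this rule, 6.1% in either direction, with a median change of -0.02. Of 19 corticothalamic and subplate genes 7 were lower and 3 higher (list median -0.28). The nuclear receptor gene Nr4a2 had the largest fall of the list (-3.34 ± 0.14, adjusted p = 1.56e-05), and the kainate receptor subunit gene Grik3 read 7.33, 7.81 and 7.42 against 6.47, 6.36 and 5.98 (-1.25 ± 0.16, adjusted p = 0.00321). The 3 higher genes were Crym (2.25 ± 0.18, adjusted p = 0.000346), Lmo3 (0.49 ± 0.11, adjusted p = 0.0333) and Ppp1r1b (0.44 ± 0.088, adjusted p = 0.0246). Crym binds thyroid hormone and is also a gene of layer V. Without any 1 array the higher count was 1, or 2 where that array was D6/Zbtb20S replicate 2, while the lower count was 7 or 8.

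Of 13 measured subcerebral genes 6 were lower in limma, 0 were higher and 7 did not pass (list median -0.29), and 4 of the 13 changes were positive. At an unadjusted p under 0.05, 7 were lower and 0 higher, and 2 passed in the ordinary linear model. The 6 were the transmembrane protein gene Crim1 (-1.78 ± 0.11), the contactin gene Cntn6 (-1.38 ± 0.10), the forkhead gene Foxo1 (-0.97 ± 0.089), the cadherin gene Cdh13 (-0.83 ± 0.10), Tmem150c (-0.51 ± 0.077) and the calmodulin-binding Pcp4 (-0.44 ± 0.090).

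Callosal and upper-layer genes split, with 5 of 21 higher and 6 lower (list median 0.09). The secreted glycoprotein gene Dkk3 read 7.68, 7.69 and 7.39 in wildtype and 6.00, 5.82 and 6.00 in transgenic arrays, 3.14-fold lower (-1.65 ± 0.11, adjusted p = 0.000118). In the opposite direction Chn2, a Rac GTPase-activating protein gene, read 6.45, 6.63 and 6.66 against 7.70, 7.73 and 7.64, 2.16-fold higher (1.11 ± 0.087, adjusted p = 0.000289). The arrays of neither gene overlapped. Without wildtype replicate 2, 3 genes of the list were higher.

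Among 19 partners and co-determinants of the network 3 were higher and 2 lower (list median -0.09). Neurod2, a basic helix-loop-helix factor of maturing excitatory neurons, read 8.19, 8.09 and 8.31 in wildtype and 9.25, 9.53 and 9.16 in transgenic arrays, 2.17-fold higher (1.12 ± 0.11, adjusted p = 0.00101). Id2, an inhibitor of helix-loop-helix factors, read 10.51, 10.55 and 10.34 against 9.34, 9.41 and 8.87, 2.40-fold lower (-1.26 ± 0.14, adjusted p = 0.00178). The 14 genes of the list that did not pass had changes from -0.33 (Otx1) to 0.16 (Ski). Among these, the cortical field and lineage factors Emx1, Emx2, Nfia, Nfib, Zbtb18 and Neurod6 had changes from -0.20 to 0.049. Nr2f1, another cortical field factor, was at -0.29 ± 0.14. The progenitor factor genes Neurog2 and Lhx2 (the latter also counted as higher in the callosal list) were higher and Eomes lower. With D6/Zbtb20S replicate 1 or 2 left out 1 gene was higher, and with wildtype replicate 1 or D6/Zbtb20S replicate 2 or 3 left out 1 was lower.

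Of 13 hippocampal pyramidal neuron genes 3 were higher and 3 lower (list median 0.19), and Satb1 itself is among the lower. The adhesion gene Nectin3 (1.89 ± 0.098) and the LIM-only gene Lmo1, from 7.27, 6.77 and 6.96 to 8.74, 8.75 and 9.03 (1.84 ± 0.14, adjusted p = 0.000248), had the largest rises. Nectin3 stands in the callosal list as well. The remaining higher gene was Man1a (0.53 ± 0.11, adjusted p = 0.0236). Beside Satb1, the lower genes were Cpne4 (-1.66 ± 0.14, adjusted p = 0.00043) and Tyro3 (-0.70 ± 0.12, adjusted p = 0.011). In the same tissue 3 of 11 microglial genes were higher (median 0.40; summed signal 626 to 664 in wildtype and 817 to 945 in transgenic arrays) and 4 of 10 oligodendrocyte lineage genes lower (median -0.27; 1024 to 1220 and 751 to 847). Their part in the changes of the members was not tested. Without wildtype replicate 2 or D6/Zbtb20S replicate 1, 1 microglial gene was higher.

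**Figure D5:**
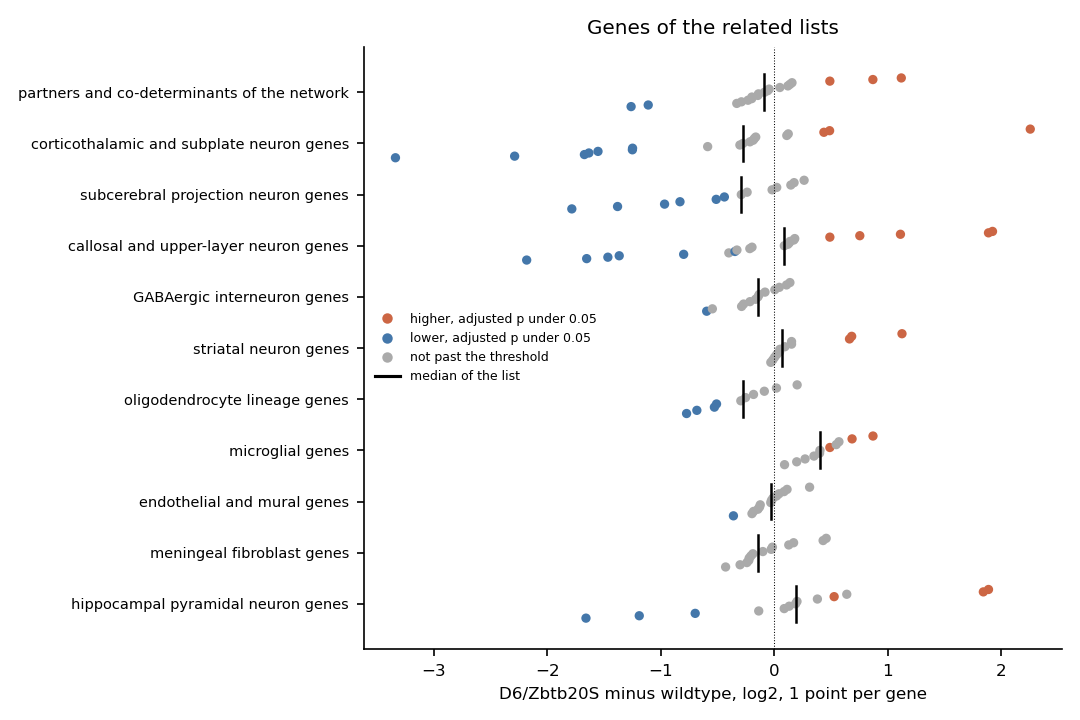
Change of each measured gene of the related lists (D6/Zbtb20S minus wildtype, log2; 1 point per gene on its brightest probe set), coloured by call, with the list median as a black bar. Corticothalamic and subcerebral lists have medians of -0.28 and -0.29, callosal genes lie on both sides, and meningeal genes have no call.

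For each member called on its brightest probe set, the genes whose arrays followed it most closely were found, so Bcl11a was not searched. The measure was the root mean square difference between log2 values centred on each gene's own mean, over the 6 arrays. It was taken among 11778 other genes with a mean above the array median. Nearest to Tbr1 were Tox, an HMG-box factor gene (0.071), Bcl2l11, a gene of a cell death activator (0.072), and AI593442 (0.088). Fezf2 was followed by the homeobox gene Pknox2 (0.053), Tmem108 (0.070) and the neurexophilin gene Nxph3 (0.077). For Zfpm2 the distances were larger, 0.12 to the PR-domain gene Prdm8, 0.15 to the arginase gene Arg2 and 0.17 to the R-spondin gene Rspo2. For Ccn2 they were Spred3 (0.053), Fblim1 (0.056) and Lrrc75a (0.056), and for Satb1 Spry2 (0.097), Tmem108 (0.11) and Dpy19l3 (0.12). The rising Bcl11b was matched by Cpsf2, a subunit gene of the polyadenylation machinery (0.063), Arid5b (0.076) and Foxp1 (0.079). These distances mostly carry the difference between the genotypes, and all of the named genes passed with the direction of their member.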

How the data were processed

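The deposited table held log2 values per probe set and array. Per the submitters' processing notes RMA and limma were used (versions and order not given), and the scaling last applied is unknown. The log2 scale was taken from the range of the deposited values. RMA corrects background, normalizes arrays and summarises probes. Of 45101 probe sets, 64 controls were left out. Gene symbols were those of GEO's platform annotation.

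Each of 45037 probe sets entered lmFit and eBayes of limma 3.58.1 (R 4.3.3), without trend or covariates. P-values were adjusted by Benjamini-Hochberg over all probe sets, with a threshold of 0.05. Every adjusted p is from this fit unless another is named, and ± after a change is its moderated standard error. A gene in a list was read on its probe set with the highest mean, and its other probe sets need not have passed. Slc2a1 was called on 1 of 3, Grik3 and Tmem150c on 1 of 2 and Cdh13 on 2 of 4. Foxp1 was called on 8 of 8, and Crim1, Dkk3 and Chn2 on 2 of 2. Lists were described by counts and medians. In data simulated for this comparison, 200 of 45037 probe sets were changed, far fewer than the 2484 called in the real data. There 17% of changes of 0.5 and 74% of changes of 1 (log2) were recovered, with 2.15% false calls. With fewer changed probe sets the adjusted threshold is stricter, so these shares do not give the recovery in the real data. The number of arrays limits the precision.

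Genes named were all members, Zbtb20, the paired genes and list members past the threshold (or, where none passed, those with the smallest p). The 3 nearest genes of each member called on its brightest probe set were also named. Genes that did not pass in a list with calls were named after their values were seen. They were the dopamine receptors, Nxph1, Slc32a1, Gad2 and the partners and co-determinants that did not pass. Members and lists were chosen with earlier results of these data known. Plots used Python 3.11.15 and matplotlib 3.10.9. Alternatives were a replicate block, leaving out arrays, an intensity trend, array weights, equal medians, quantile normalization, a filter on dim probe sets (3 or more arrays over their median), gene-level reading, thresholds of 0.01 and 0.1, an ordinary linear model and the actin covariate.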

Additional observations from a re-analysis of the deposited data

How the results depend on the processing

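The 8 lower member probe sets were counted as 8 in every alternative read by probe set except the ordinary linear model, which gave 1, and the 5 higher ones as 3 to 6 except there, where the count was 0. A threshold of 0.01 gave 3 higher. Fits without 1 array gave 3 to 5 higher and 8 lower. The 13 called probe sets kept their sign in all alternatives. Over all probe sets 2484 were called, 1162 to 2881 without 1 array, 4710 with array weights, 1062 at a threshold of 0.01 and 200 with the ordinary linear model. Over 18193 genes 1402 were called on the brightest probe set and 1498 on the mean of probe sets. With the replicate block 3304 probe sets were called, and 1450339_a_at of Bcl11b passed (adjusted p = 0.0135). It then also gave 2 lower GABAergic, 5 higher microglial and 0 lower endothelial and mural genes. Deviations of same-numbered arrays correlated at -0.033, 0.18 and 0.21. Wildtype replicates 2 and 3 were closest to the transgenic array of their own number, and wildtype replicate 1 to D6/Zbtb20S replicate 2 (0.15). Whether the replicate numbers pair the arrays is therefore not settled.

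Signs turned among uncalled Sox5 sets, and the cause was not tested. Without 1 array, 1440827_x_at ran from -0.032 to 0.16, 1423500_a_at from -0.061 to 0.15 (-0.029 without wildtype replicate 1), 1432190_at from -0.032 to 0.20 and 1452511_at from -0.041 to 0.15. With array weights 1440827_x_at was at -0.021, 1423500_a_at at -0.084 and 1452511_at at -0.086. The mean of the Sox5 sets was 0.026.

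Without 1 array, counts in the lists were 1 to 3 higher and 1 to 2 lower partners, 1 to 2 higher corticothalamic, 3 to 5 higher callosal, 0 to 2 lower GABAergic, 1 to 3 higher striatal, 1 to 4 higher microglial, 0 to 1 higher and 0 to 1 lower endothelial and mural, and 0 to 1 lower meningeal genes. Both gene-level readings gave 2 lower GABAergic genes. The within-array shifts kept their sign in every alternative, and without 1 array the smallest, Fezf2 minus Tbr1, ran from 0.12 to 0.28.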
